A study of Mus musculus with 21 samples.

Results

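Relaxin family genes encode small insulin-like hormones and the membrane receptors that read them. Described here are 4 of them, the receptors Rxfp1 and Rxfp2 and the ligands Insl3 and Rln1, out of 32643 genes counted in mouse testis at postnatal day 10. They were chosen by gene symbol, and the set was built around Rxfp1 because its level separated the genotypes of these same animals. The levels of Rxfp1 in knockout and wild-type animals are therefore a description, with no test. The other 3 came along as its family, and 5 further relaxin family genes (Insl5, Insl6, Rln3, Rxfp3 and Rxfp4) are given beside them.

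RNA of testes from 21 individual mice was sequenced. All carried a mixed strain background of 50% 129sv and 50% C57Bl6. The wild-type (WT) mice came in 3 groups of 4, given vehicle, BPA (bisphenol A, used to make plastics and a weak estrogen) or the plant sterol stigmasterol. The knockout mice (KO, FXRalpha-/-, lacking the bile acid receptor FXRα that Nr1h4 encodes) came in 3 groups of 3 with the same treatments. The labels give no Cre or transgene, and dose, route and litter are not stated in what was used here. Levels are CPM, read counts scaled to a common library size, from libraries that held 35459523 to 61498855 counted reads, and "level per kb" is CPM divided by the gene length in kb. Values of a group are listed from lowest to highest, and T with a number is the code of an animal.

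Relaxin and INSL3 are short peptides of A and B chains joined by disulfide bonds, processed like insulin. RXFP1 is the relaxin receptor and RXFP2 the INSL3 receptor. Both are G protein-coupled receptors with a large leucine-rich repeat ectodomain that raise cyclic AMP, whereas RXFP3 and RXFP4 are small peptide-type receptors for relaxin-3 and INSL5 that lower it. In the male, INSL3 comes from Leydig cells, and through RXFP2 on the gubernaculum it drives descent of the testis. Mouse Rln1 encodes the relaxin that loosens pelvic connective tissue in pregnancy and is also made in the prostate.

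The receptors are related in sequence, so the coding parts of their transcripts were compared to see how far reads of one could be taken for the other. Over 2154 aligned coding bases 62.1% were identical, and the longest run the pair shared exactly was 15 bases, in exon 16 of both. It is shown in capitals with 20 bases of its own gene on each side (GENCODE transcripts, mm10, read 5′ to 3′ along the coding strand). The Rxfp1 stretch is chr3:79650702-79650756 on the minus strand and the Rxfp2 stretch is chr5:150067168-150067222 on the plus strand.
Rxfp1: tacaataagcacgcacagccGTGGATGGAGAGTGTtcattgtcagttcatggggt
Rxfp2: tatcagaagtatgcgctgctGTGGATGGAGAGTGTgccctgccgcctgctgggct

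A second set of sequences lies in front of the ligand genes Insl3 and Rln3. They are shown because Nr5a1, a nuclear receptor that activates Leydig cell genes, was lower in KO testes, and Insl3 and Rln3, described below, differed in what they did there. Capitals mark AAGGTC, the core that Nr5a1 binds, and AGGTCA, the half-site of many nuclear receptors, on either strand; the pair can overlap by 5 bases. Of 32851 RefSeq promoters in mouse build GRCm38.p6, read from 250 bases before to 50 after the start, 12.3% held AAGGTC and 16.3% held AGGTCA. Insl3 had AAGGTC at -136 on the gene's strand and at -90 on the other strand, and no AGGTCA. Rln3 had AGGTCA at -115 and -71, and an AAGGTC at -116 that overlaps the first of these. Positions count back from the RefSeq start, and the stretches stop where the deposited gene model begins, at chr8:71689002-71689213 (plus strand) for Insl3 and chr8:84045001-84045229 (minus strand) for Rln3.
Insl3: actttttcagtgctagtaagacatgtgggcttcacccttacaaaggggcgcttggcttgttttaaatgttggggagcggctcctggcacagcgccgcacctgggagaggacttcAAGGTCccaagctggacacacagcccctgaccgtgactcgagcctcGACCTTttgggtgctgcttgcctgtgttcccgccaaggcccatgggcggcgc
Rln3: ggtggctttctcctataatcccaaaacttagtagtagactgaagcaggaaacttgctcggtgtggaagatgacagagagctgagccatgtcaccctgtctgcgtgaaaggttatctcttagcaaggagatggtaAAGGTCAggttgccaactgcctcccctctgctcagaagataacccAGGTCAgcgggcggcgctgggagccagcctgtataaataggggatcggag
The RefSeq promoters of Rxfp2, Rln1, Insl5, Rxfp3 and Rxfp4 held neither motif in this window. Rxfp1 and Insl6 had no entry. A match is a description of letters and says nothing about binding.

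The targeted gene was checked first. Nr1h4 lay at 0.241 to 0.868 CPM in the 12 WT libraries and at 0.172 to 0.492 CPM in the 9 KO libraries. It fell by 0.78 ± 0.23 (SE) on the log2 scale averaged over treatments (adjusted p = 0.0303, edgeR quasi-likelihood test), and the genotypes overlapped; a count per gene does not show which exons were deleted. Sertoli, Leydig, spermatogonial and meiotic markers were present in every library. Cdh16, an epididymal marker, reached 10 CPM in 9 libraries, 3 WT and 6 KO, called Cdh16-high below, and results that move without them are given with that value. In these bulk samples, fewer cells of a type and less RNA per cell cannot be told apart.

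Rxfp1, the relaxin receptor (ENSMUSG00000034009, chr3:79641611-79737880, mm10, minus strand, 18 exons in its main transcript), was low but detected in every WT testis and well expressed in every KO testis. The WT testes had 0.301, 0.319, 0.373 and 0.581 CPM under vehicle, 0.412, 0.528, 0.548 and 0.657 CPM under BPA, and 0.291, 0.405, 0.433 and 0.471 CPM under stigmasterol. Behind each stood only 12 to 30 reads, so the 95% Wilson interval of T71 runs from 0.172 to 0.526 CPM by counting error alone.

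The KO testes had 9.08, 12.6 and 18.8 CPM of Rxfp1 under vehicle, 20.1, 21.5 and 23.6 CPM under BPA, and 14.9, 20.8 and 22.3 CPM under stigmasterol. KO libraries held 452 to 1218 Rxfp1 reads each. The lowest KO library, T1, lay far above the highest WT library, T74, and no library stood between the genotypes.

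The mean was 0.443 ± 0.117 CPM (SD, n = 12) in WT and 18.2 ± 4.91 CPM (SD, n = 9) in KO. The log2 difference of KO from WT was 5.08 ± 0.26 (SE) under vehicle, 5.33 ± 0.26 under BPA and 5.60 ± 0.26 under stigmasterol, and 5.34 ± 0.15 averaged over treatments. That is a 40.5-fold difference on the linear scale. Of 20254 genes tested, 23 had a larger averaged rise. Genotypes did not overlap, with KO higher, for 0.434% of tested genes (88), a share to which Rxfp1 belongs by choice.

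The 3 KO libraries with Cdh16 under 10 CPM (T90, T25 and T15) had Rxfp1 at 18.8 to 22.3 CPM, and the 6 others at 9.08 to 23.6 CPM. Without the Cdh16-high libraries, which leaves a single KO library per treatment, the difference was 5.49 averaged over treatments. Under vehicle it was 5.46, with T90 alone for KO. Marker sums of 7 epididymal genes were 56.7 to 128 CPM over WT and 103 to 466 CPM over KO libraries, and 5 of the 7 rose, beside 13.9% of all genes called in the averaged contrast and 1388 of 20254 that rose. The 3 KO libraries with low Cdh16 had epididymal sums of 103 to 105 CPM, above the 56.7 to 79.8 CPM of the 9 WT libraries with low Cdh16. Rxfp1 was at 0.528 CPM in the WT animal T60, whose sum of 128 CPM lay within the KO range. All 3 fat markers rose as well, with sums of 0.476 to 2.42 CPM over WT and 0.645 to 73.1 CPM over KO libraries, the highest in T117. T90 and T15, with fat sums of 0.645 and 0.993 CPM, had Rxfp1 at 18.8 and 22.3 CPM. The part of these tissues in the Rxfp1 values was not tested.

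**Figure D1:**
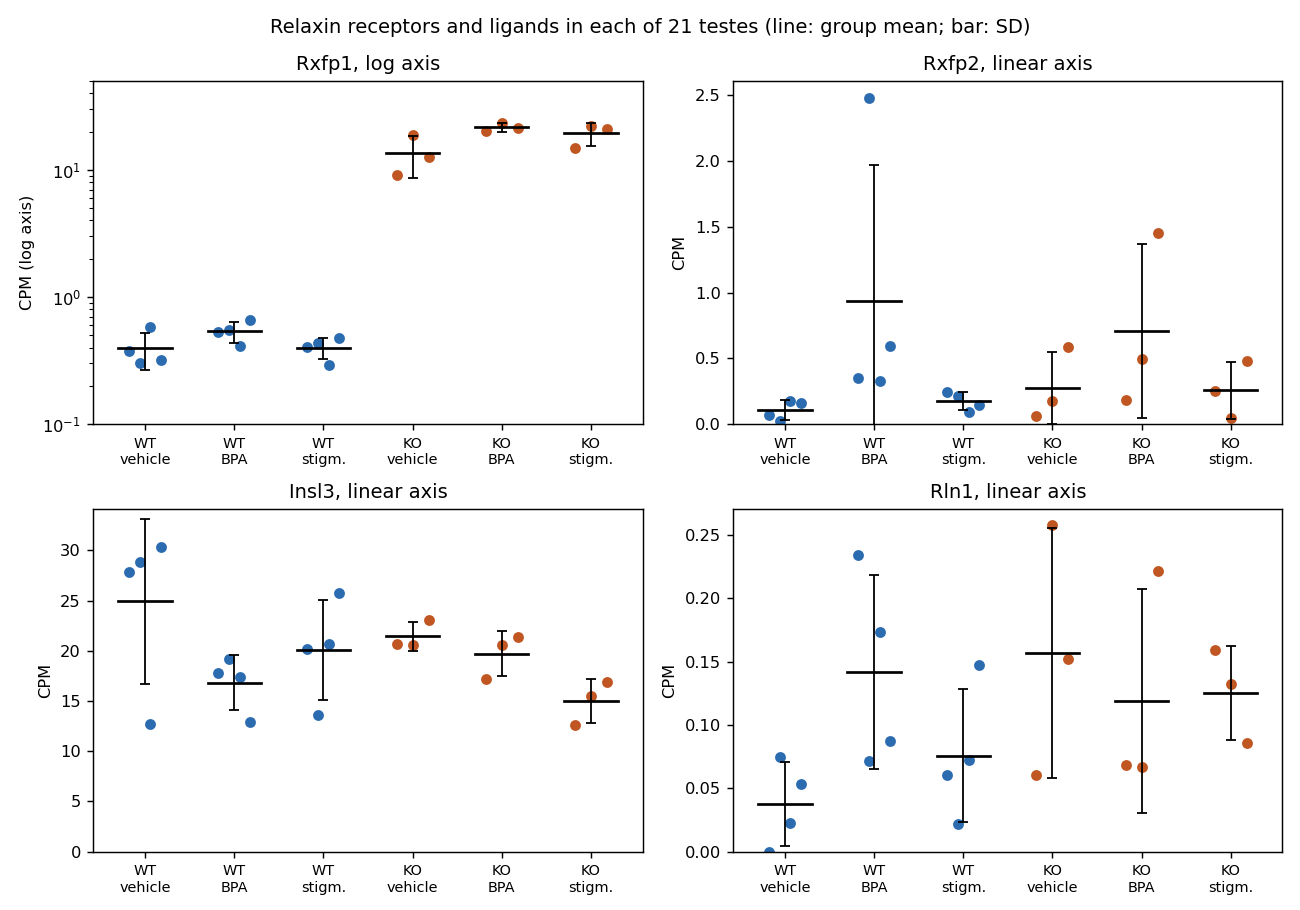
CPM of Rxfp1 (log axis), Rxfp2, Insl3 and Rln1 (linear axes from 0) in each of 21 testes by genotype and treatment, with points for animals, lines for group means and bars for the SD. Rxfp1 separates KO (9.08 to 23.6 CPM) from WT (0.291 to 0.657 CPM), while the other 3 genes overlap between genotypes.

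Treatments were not part of how Rxfp1 was chosen, and no treatment contrast of it passed the threshold (adjusted p under 0.05 over all genes). BPA against vehicle in KO gave the largest of them. The 3 BPA libraries (20.1 to 23.6 CPM) all lay above the 3 vehicle libraries (9.08 to 18.8 CPM), with a log2 difference of 0.69 ± 0.23 (SE) and an adjusted p of 0.896 in edgeR. An exact two-sided permutation test over the 6 animals gave p = 0.1, the smallest it can give, which follows whenever groups of that size do not overlap. BPA groups lay wholly above vehicle in KO for 5.79% of all tested genes, and 0.0148% of genes were called in that contrast. The authors' deposited table gives a log2 ratio of 0.69 with an adjusted p of 0.76 for it. Without the Cdh16-high libraries, which leaves T90 against T25, the difference was 0.10.

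The other treatment contrasts of Rxfp1 were smaller. Stigmasterol against vehicle in KO gave 0.52 ± 0.23 (SE; adjusted p = 1.00), with overlapping groups and p = 0.2 in the exact permutation test. In WT, BPA gave 0.43 ± 0.27 (adjusted p = 0.411) and stigmasterol -0.01 ± 0.28 (adjusted p = 0.998), all by edgeR. The genotype interaction was 0.26 for BPA (95% interval -0.50 to 1.01) and 0.52 for stigmasterol (-0.24 to 1.29). Those intervals leave room for a treatment response that differs by genotype by up to 1.01 log2 units for BPA and 1.29 for stigmasterol, so a missed threshold does not show that the responses were alike. Of the genes tested, 0% were called for BPA in WT, 0.00494% for stigmasterol in WT, 0% for stigmasterol in KO, 0.0148% for the BPA interaction and 0.00987% for the stigmasterol interaction. Behind the counts of 0, edgeR had 3798 genes at an unadjusted p under 0.05 for BPA in WT and 779 for stigmasterol in KO, and DESeq2 called 1019 and 1.

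The order of the group means of Rxfp1 was KO BPA, KO stigmasterol, KO vehicle, WT BPA, WT stigmasterol and WT vehicle. Neighbours in that order overlapped in range, apart from KO vehicle and WT BPA.

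Genes around Rxfp1 on chromosome 3 did not share the size of its difference. The 5 nearest annotated genes on each side were taken, and 8 of the 10 had enough reads. On the lower-coordinate side 4930579G24Rik (0.15), Etfdh (0.03, an electron transfer enzyme of mitochondria), Ppid (0.10, a cyclophilin), 4930589L23Rik (0.06) and Fnip2 (0.04, a folliculin partner) had small averaged log2 differences. Of these Ppid passed the threshold (adjusted p = 0.0385, edgeR), and it did so in 5 of 21 fits that left out 1 library. On the other side Tmem144 rose by 0.41 ± 0.10 (SE; adjusted p = 0.00764) and Fam198b fell by 0.28 ± 0.09 (adjusted p = 0.0449, called in 7 of 21 such fits), both by edgeR. Without the Cdh16-high libraries their differences were about as large in fewer samples, at 0.44 for Tmem144 (adjusted p = 0.379) and -0.26 for Fam198b (adjusted p = 0.536), and neither was called.

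The largest difference among these neighbours was inside Rxfp1 itself. Gm26984, a sense-intronic transcript (chr3:79673367-79676876, mm10), lies in intron 5 of Rxfp1. WT testes had 0 to 0.143 CPM of it and KO testes 0.159 to 0.559 CPM, with 0 to 6 reads in a WT library and 7 to 30 in a KO library. Its log2 difference averaged over treatments was 2.17 ± 0.30 (SE). The counts cannot tell its reads from unspliced Rxfp1 RNA, and it passed the filter on low counts through the KO libraries alone. Its value is therefore a description with no test, as for Rxfp1. Of the 8 neighbours in the fit, leaving Gm26984 aside, Ppid and Tmem144 rose and Fam198b fell, beside 13.9% of all genes called in the averaged contrast. Gm26420 and Gm6706 had too few reads for a test.

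**Figure D2:**
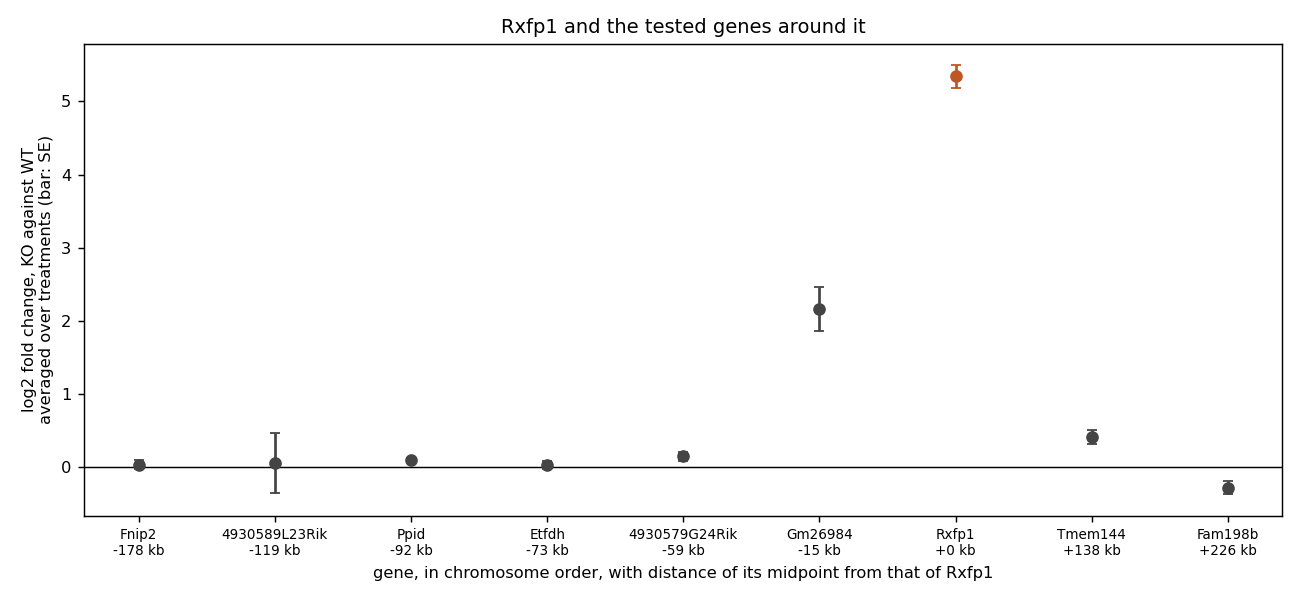
Log2 fold change of KO against WT averaged over treatments (points, bars for the SE) for Rxfp1 and the tested genes among its 10 nearest, in chromosome order with the distance between gene midpoints. Rxfp1 stands at 5.34 and Gm26984, within it, at 2.17, while the other genes lie between -0.28 and 0.41.

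The genes most like Rxfp1 over the 21 libraries were Gm3608 (Pearson r = 0.986), Gm4875 (0.986), Ppm1n (0.981), Gm1840 (0.980) and Akt2-ps (0.977), by log2 CPM. Gm3608, Gm4875 and Akt2-ps are annotated as pseudogenes, Ppm1n encodes a protein phosphatase, and each lies on another chromosome than Rxfp1 (1, 6, 11, 7 and, for Gm1840, 8). Gm3608 went from 0.0649 to 0.304 CPM in WT up to 12.4 to 13.4 CPM in KO, and Ppm1n from 0.195 to 0.385 CPM up to 1.31 to 2.12 CPM. All points share the step between genotypes: within the 9 KO libraries the same correlations were 0.19, -0.03, 0.68, 0.54 and 0.31. By Spearman's rank correlation none of these 5 stayed among the top 5, which were Homer3, Depdc7, Arhgef16, Hmcn2 and Bglap3.

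Rxfp2, the INSL3 receptor (ENSMUSG00000053368, chr5:150018675-150082184, mm10, plus strand), was low in both genotypes and varied between animals within groups. The WT testes had 0.0251, 0.0658, 0.160 and 0.179 CPM under vehicle, 0.326, 0.352, 0.592 and 2.48 CPM (T75) under BPA, and 0.0909, 0.147, 0.216 and 0.243 CPM under stigmasterol. All 4 BPA animals lay above all 4 vehicle animals, and T75 stood apart from every other library.

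The KO testes had 0.0602, 0.177 and 0.583 CPM of Rxfp2 under vehicle, 0.183, 0.492 and 1.45 CPM (T117) under BPA, and 0.0441, 0.25 and 0.479 CPM under stigmasterol. The 3 KO groups overlapped one another. Read counts ran from 1 (T71) to 104 (T75), and 4 libraries had 3 reads or fewer. An antisense gene overlaps the last part of Rxfp2 and the library kit does not keep the strand, so reads there cannot be assigned to one of them.

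Rxfp2 did not follow Rxfp1 between genotypes. Its mean was 0.406 ± 0.671 CPM (SD, n = 12) in WT and 0.413 ± 0.435 CPM (SD, n = 9) in KO. The averaged log2 difference was 0.49 ± 0.52 (SE; adjusted p = 0.589), and it was 1.26 under vehicle (adjusted p = 0.491), -0.40 under BPA (0.991) and 0.60 under stigmasterol (0.777), all by edgeR. The 95% interval of the averaged difference, -0.61 to 1.58, does not reach the 5.34 of Rxfp1. Without the Cdh16-high libraries the averaged difference was -0.77 (adjusted p = 0.608).

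BPA against vehicle in WT was the widest difference of Rxfp2, at 3.08 ± 0.88 (SE) on the log2 scale, and it did not pass the threshold in edgeR (adjusted p = 0.0861). DESeq2 put it at 3.12 with an adjusted p of 0.0126, and the authors' deposited table gives a log2 ratio of 3.12 with an adjusted p of 0.01. BPA lay wholly above vehicle in WT for 3.69% of tested genes. An exact two-sided permutation test over the 8 animals gave p = 0.0286, the smallest it can give, which follows whenever groups of that size do not overlap. Without T75 the difference was 1.95 (adjusted p = 0.370), and without the Cdh16-high libraries 2.29 (adjusted p = 0.640). In KO the same contrast gave 1.42 ± 0.91 (adjusted p = 0.896), and the interaction was -1.66 with a 95% interval of -4.34 to 1.01. For stigmasterol it was 0.69 in WT (adjusted p = 0.908) and 0.02 in KO (adjusted p = 1.00), and the interaction was -0.67 (95% interval -3.54 to 2.21).

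Contractile markers of smooth muscle, and Acta1 of skeletal muscle, were high in T75 and T117, the 2 libraries with the most Rxfp2. The sum of 4 peritubular myoid markers (Acta2, Myh11, Cnn1 and Des, all contractile or cytoskeletal) was 1291 CPM in T75 and 1600 CPM in T117, 1296 CPM in T93 and 1005 CPM in T60, and 584 to 911 CPM in the other 17 libraries. The sum of 6 skeletal muscle markers was 28.5 CPM in T75 and 33.9 CPM in T117, against a median of 8.52 CPM over all libraries. That sum was carried by Acta1, skeletal actin, at 20.4 and 25.6 CPM, while Ckm and Myog, which mark muscle fibres and their precursors, did not exceed 0.825 and 0.309 CPM in any library. Myh3, an embryonic muscle myosin, was at 3.82 CPM in T75 and 3.54 CPM in T117, below its median of 4.77 CPM. Ckm was at 0.548 CPM in T75 and 0.517 CPM in T117, above its median of 0.304 CPM. Tnnt3, of the same list, was at 1.88 and 1.72 CPM, above its median of 1.28 CPM. Myh8 was at 1.86 and 2.41 CPM (median 1.99 CPM), and Myog at 0.0715 and 0.0984 CPM (median 0.0967 CPM). T1 had a skeletal sum of 24.8 CPM with Rxfp2 at 0.0602 CPM, and T93 its high myoid sum with Rxfp2 at 0.479 CPM. The WT BPA animal T74 had Rxfp2 at 0.592 CPM with a myoid sum of 782 CPM and Acta1 at 0.153 CPM. The KO BPA animal T83 had Rxfp2 at 0.492 CPM with a myoid sum of 703 CPM and Acta1 at 0.0671 CPM. T117 also had the highest fat marker sum, 73.1 CPM. The part of these tissues in the Rxfp2 values was not tested.

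**Figure D3:**
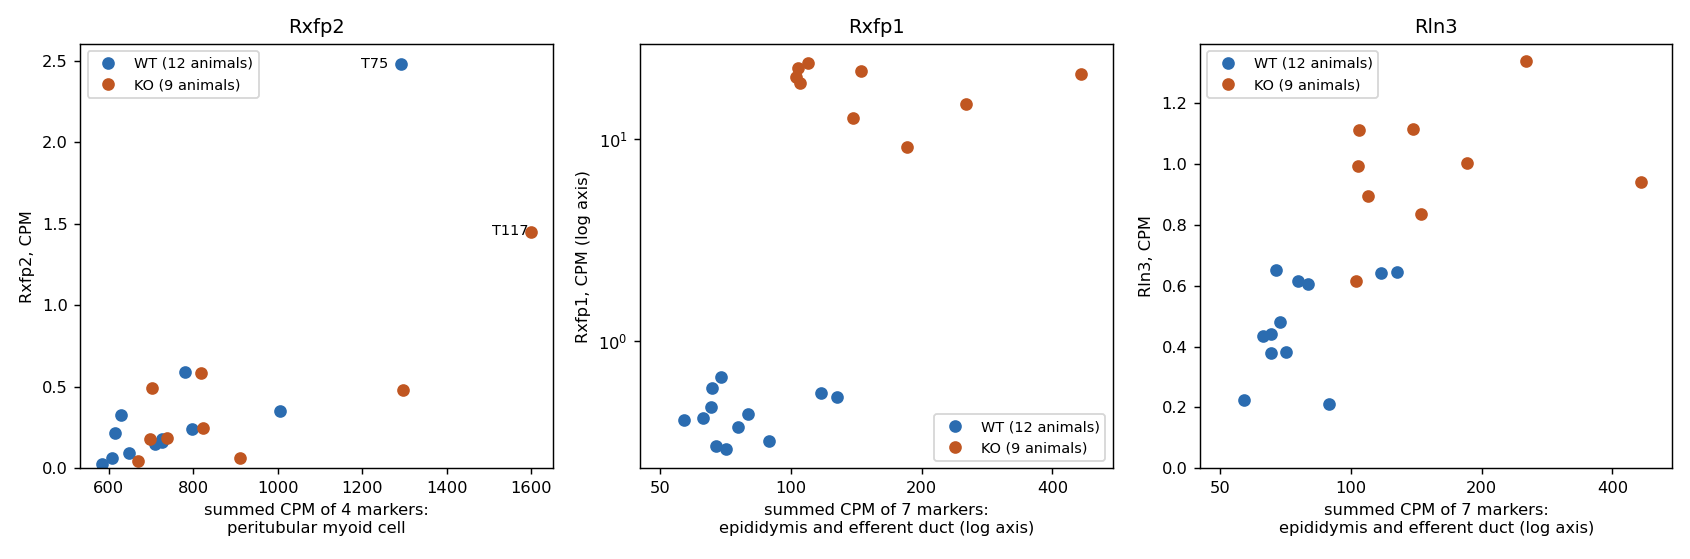
Each point is 1 testis. Rxfp2 in CPM is plotted against the summed CPM of 4 myoid markers (linear axes), and Rxfp1 (log axis) and Rln3 (linear axis) against the summed CPM of 7 epididymal markers (log axis). Rxfp2 is highest in T75 and T117, with myoid sums of 1291 and 1600 CPM, and Rxfp1 separates the genotypes at sums from 103 to 128 CPM, where they overlap.

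The genes most like Rxfp2 were picked after its values were seen, by the measure used for Rxfp1. They were Svep1 (r = 0.912), a secreted adhesion protein of mesenchyme, Ak5 (0.896), Piezo2 (0.890), a stretch-gated ion channel, Cacna1d (0.889), a calcium channel subunit, and Pdgfd (0.880), a growth factor. Within genotypes the same correlations were 0.88 to 0.97 over the 12 WT libraries and 0.79 to 0.98 over the 9 KO libraries. The genes were picked over these same libraries, so those values are no separate check. By Spearman's rank correlation 2 of the 5, Cacna1d and Piezo2, stayed among the top 5.

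Insl3, the Leydig cell ligand of RXFP2 (ENSMUSG00000079019, chr8:71689214-71690575, mm10, plus strand), was the most abundant family gene per kb. The WT testes had 12.7 (T79), 27.9, 28.8 and 30.3 CPM under vehicle, 12.95, 17.4, 17.8 and 19.2 CPM under BPA, and 13.7, 20.2, 20.7 and 25.8 CPM under stigmasterol. T79 lay below the other vehicle animals and below all BPA animals.

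The KO testes had 20.6, 20.7 and 23.1 CPM of Insl3 under vehicle, 17.2, 20.6 and 21.4 CPM under BPA, and 12.6, 15.5 and 16.9 CPM under stigmasterol. The stigmasterol animals lay below every KO vehicle animal. The highest of them, at 16.9 CPM, was also just below the lowest KO BPA animal, at 17.2 CPM, and stigmasterol against BPA was not tested.

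Between genotypes Insl3 differed by less than the spread. The mean was 20.6 ± 6.25 CPM (SD, n = 12) in WT and 18.7 ± 3.36 CPM (SD, n = 9) in KO, an averaged log2 difference of -0.14 ± 0.14 (SE; adjusted p = 0.555, edgeR; 95% interval -0.42 to 0.15). It was -0.22 under vehicle (adjusted p = 0.627), 0.23 under BPA (0.955) and -0.42 under stigmasterol (0.334). Of all tested genes, 2.92% were called between genotypes under vehicle, 0.859% under BPA and 7.21% under stigmasterol.

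Treatment values of Insl3 were all below vehicle and none was called. BPA in WT gave -0.57 ± 0.22 (SE; adjusted p = 0.175, edgeR), and leaving out the low vehicle animal T79 made it -0.78 with an adjusted p of 0.0172. Leaving out T79 also took the count of genes called in that contrast from 0 to 1321. With T79 kept, an exact two-sided permutation test of BPA against vehicle in WT gave p = 0.143. Stigmasterol in KO gave -0.52 ± 0.25 (adjusted p = 1.00), and an exact two-sided permutation test gave p = 0.1, the smallest for 3 against 3. Such a p follows whenever groups of that size do not overlap, and stigmasterol lay wholly below vehicle in KO for 4.96% of tested genes. Stigmasterol in WT gave -0.31 (adjusted p = 0.759) and BPA in KO -0.12 (0.948), and the interactions were 0.44 for BPA (95% interval -0.25 to 1.14) and -0.20 for stigmasterol (-0.90 to 0.50). The authors' deposited table gives log2 ratios of -0.57 and -0.52 for the first pair, with adjusted p-values of 0.15 and 1.

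Insl3 lies wholly within the span of Jak3 on the same strand, so reads in the shared part could be counted for either. Jak3, a kinase of cytokine receptors, was at 6.11 to 23.5 CPM and highest in T75. The correlation of Jak3 with Insl3 over the 21 libraries, which share depth and dissection, was r = 0.16.

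**Figure D4:**
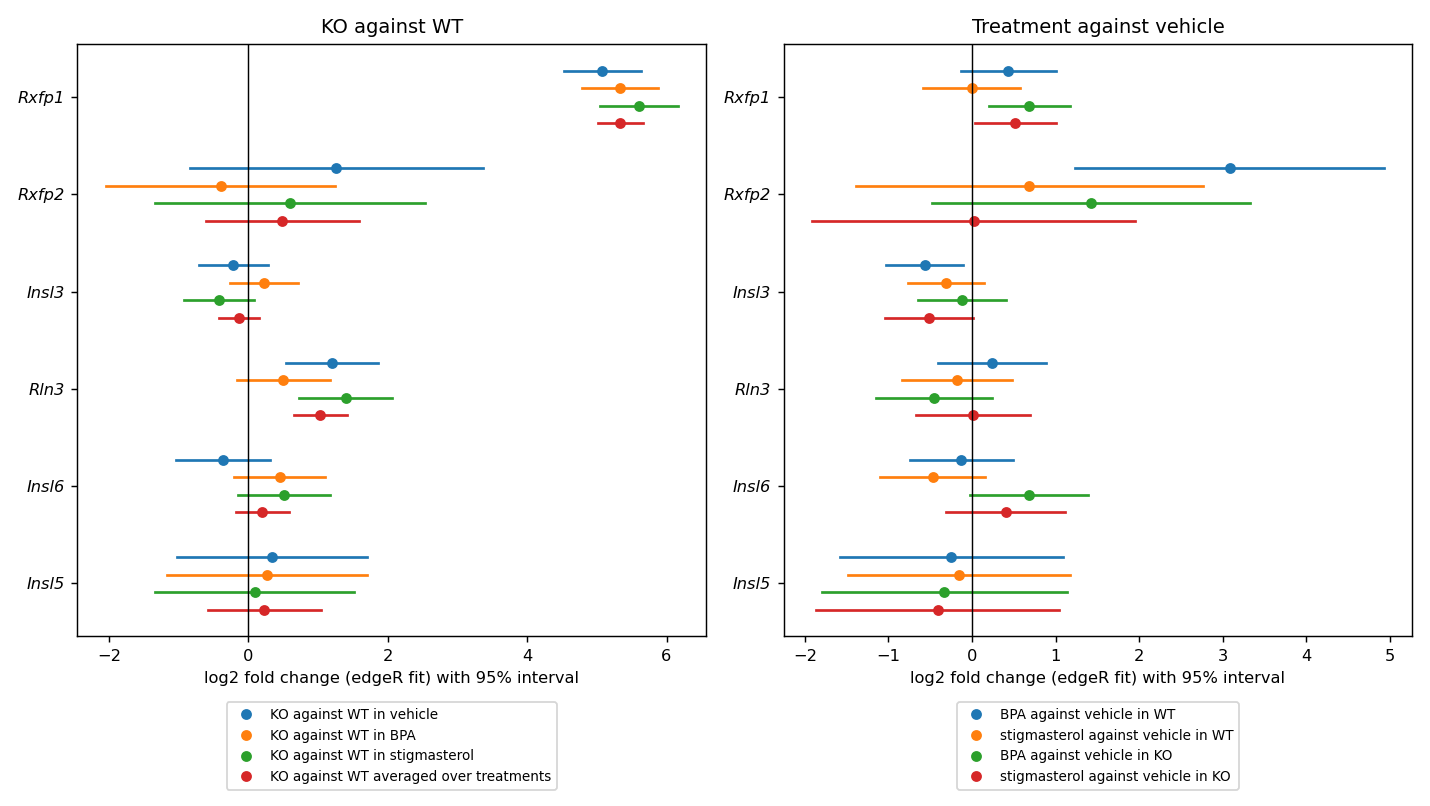
Log2 fold changes from the edgeR fit (points) with 95% intervals (lines) for the 6 family genes that could be tested, KO against WT on the left and treatment against vehicle on the right. The intervals of Rxfp1 between genotypes start at 4.53 or above and are a description; of the other genes on the left, Rln3 lies above 0 under vehicle, under stigmasterol and averaged.

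The Leydig setting of Insl3 was looked at through a list of 7 Leydig cell markers, including Star, Cyp11a1 and Cyp17a1 of steroid synthesis. None of the 7 was called between genotypes in the averaged contrast (median log2 difference 0.06, against 0.01 over all genes). By treatment, their median was 0.04 under vehicle, 0.50 under BPA and -0.42 under stigmasterol. None of the 7 was called in these either, beside 2.92%, 0.859% and 7.21% of all genes. Their sum was 315 to 708 CPM over WT and 329 to 611 CPM over KO libraries. Of 6 regulators of Insl3, 1 fell and none rose. That was Nr5a1, the steroidogenic factor, by 0.33 ± 0.06 (SE; adjusted p = 0.00196, edgeR), and it is also a Sertoli cell gene. Without the Cdh16-high libraries the difference was -0.32 (adjusted p = 0.204), nearly the same size in fewer samples. A share of 1 in 6 is near the 13.9% of all genes called in that contrast, of which 1432 of 20254 were lower. Beside it, 6 of 8 Sertoli markers fell, among them Dhh, a hedgehog ligand, at -0.44, Sox9, the Sertoli transcription factor, at -0.31 and Rhox8 at -0.30 on the log2 scale. The part of Sertoli cells in the Nr5a1 value was not tested. Insl3 and Nr5a1 correlated at r = 0.56 over the 21 libraries.

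The genes most like Insl3 were Slc25a10 (r = 0.884), the mitochondrial dicarboxylate carrier, Calhm2 (0.838), an ion channel protein, Pla2g15 (0.834), a lysosomal phospholipase, Akt2 (0.824), a kinase of insulin signalling, and 1500009L16Rik (0.822). None of the Leydig markers was among them. The nearest by this measure was Cyp11a1 at 0.56, then Lhcgr, the LH receptor, at 0.54, Hsd3b6 at 0.46 and Hsd3b1 at 0.41. The rest of the list did not follow Insl3, with Cyp17a1 at 0.02, Star at -0.0004 and Hsd17b3 at -0.36.

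Rln1, mouse relaxin (ENSMUSG00000039097, chr19:29331170-29334670, mm10, minus strand), was at the limit of detection. The WT testes had 0, 1, 2 and 3 reads under vehicle, 3, 4, 8 and 12 under BPA, and 1, 3, 4 and 5 under stigmasterol. The KO testes had 3, 6 and 16 reads under vehicle, 3, 3 and 9 under BPA, and 5, 6 and 7 under stigmasterol. The highest value, in T90, was 0.258 CPM, and 10 of 21 libraries had 3 reads or fewer.

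Rln1 did not pass the filter on low counts, so the fit of the other genes holds no test of it. With every gene kept, edgeR put BPA against vehicle in WT at 1.92 ± 0.71 (SE; adjusted p = 0.237) and KO against WT under vehicle at 2.06 ± 0.74 (adjusted p = 0.178); averaged over treatments it was 0.84 ± 0.40 (adjusted p = 0.248). The authors' deposited table gives 1.91 with an adjusted p of 0.24 for BPA in WT. The groups overlapped in both comparisons, by the shared value of 3 reads. An exact two-sided permutation test of the CPM values gave p = 0.0571 for BPA in WT. Under vehicle no WT library had more than 3 reads and no KO library fewer than 3. The unadjusted p was 0.0107 there and 0.0471 averaged, so neither a difference nor its absence is shown at these counts.

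Rln3, which encodes relaxin-3, a neuropeptide that acts through RXFP3 and can also activate RXFP1, was the family gene other than Rxfp1 that rose in KO testes. Under vehicle the WT testes had 0.213, 0.380, 0.614 and 0.651 CPM and the KO testes 1.00, 1.11 and 1.12 CPM. Under stigmasterol they had 0.223, 0.382, 0.442 and 0.606 CPM against 0.940, 0.993 and 1.34 CPM. Under BPA they had 0.434, 0.482, 0.644 and 0.645 CPM against 0.617, 0.836 and 0.894 CPM. Genotypes were apart under vehicle and under stigmasterol, and the KO BPA animal T25 fell within the WT range. The share of all genes apart in those comparisons was not counted, so the separation by itself is a description.

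The averaged log2 difference of Rln3 (ENSMUSG00000045232, chr8:84042929-84045000, mm10) was 1.03 ± 0.18 (SE; adjusted p = 0.00103, edgeR), a 2.05-fold rise on 8 to 33 reads in WT and 27 to 69 in KO. It was 1.40 ± 0.32 under stigmasterol (adjusted p = 0.0129) and 1.20 ± 0.32 under vehicle (adjusted p = 0.0461), and 0.50 ± 0.32 under BPA (adjusted p = 0.796). The averaged call held in all 21 fits that left out 1 library, and the vehicle call in 2 of 7. The call under stigmasterol was lost without T10 (adjusted p = 0.0596). Without the Cdh16-high libraries the averaged value was 0.90 with an adjusted p of 0.206, in a fit of 12 libraries. In the 3 KO libraries with low Cdh16 Rln3 was at 0.617 to 1.11 CPM, and in the 9 such WT libraries at 0.223 to 0.651 CPM. The genotype interaction was not called for BPA (-0.70, adjusted p = 0.652) or stigmasterol (0.20, adjusted p = 0.933).

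Il27ra, a cytokine receptor gene next to Rln3 that was chosen after the values of Rln3 were seen, also rose in KO, by 0.48 ± 0.10 (SE; adjusted p = 0.00272, edgeR). Its range ran from 1.38 to 2.41 CPM over WT libraries and from 2.22 to 3.17 CPM over KO libraries. Palm3 and Rfx1, also near Rln3 and chosen in the same way, had averaged log2 differences of -0.22 (adjusted p = 0.0318) and 0.09 (adjusted p = 0.172). Whether reads of one gene reach the other was not tested.

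The remaining family genes did not pass the test in any contrast or were barely read. Insl6, which encodes a relaxin-like peptide of male germ cells and lies next to Rln1, ranged from 0.455 to 1.35 CPM over WT libraries and from 0.754 to 1.67 CPM over KO libraries, with an averaged log2 difference of 0.20 ± 0.18 (SE; adjusted p = 0.512, edgeR). Insl5, a gut hormone gene, had 0.0219 to 0.307 CPM in WT testes and 0.0513 to 0.363 CPM in KO testes (0.23 ± 0.39; adjusted p = 0.743). Rxfp3 had at most 2 reads and Rxfp4 at most 4 in a library, and each had none in 12 of 21. A floor of 3 reads corresponds to 0.0484 to 0.0884 CPM here. Of the 5 further family genes 3 were tested, of which 1 rose and none fell in the averaged contrast, where 13.9% of all genes were called.

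Per kb, the order of the family in WT was Insl3 at 33.1 ± 10.0, Insl6 at 1.32 ± 0.399, Rln3 at 0.751 ± 0.251, Insl5 at 0.282 ± 0.158, Rxfp2 at 0.164 ± 0.271, Rxfp1 at 0.129 ± 0.0340 and Rln1 at 0.0412 ± 0.0331 (level per kb in CPM, SD, n = 12). Insl3 was apart from Insl6, and from Insl6 down every neighbouring pair overlapped. In KO, Insl3 led at 30.0 ± 5.40 and Rxfp1 came next at 5.30 ± 1.43, followed by Rln3 at 1.55 ± 0.319 and Insl6 at 1.53 ± 0.503 (SD, n = 9). Rxfp1 did not overlap either of its neighbours there. The ligand of RXFP2 was the leading family transcript in both genotypes, and in WT all 4 receptors ranked below Insl3, Insl6, Rln3 and Insl5 by mean level per kb.

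**Figure D5:**
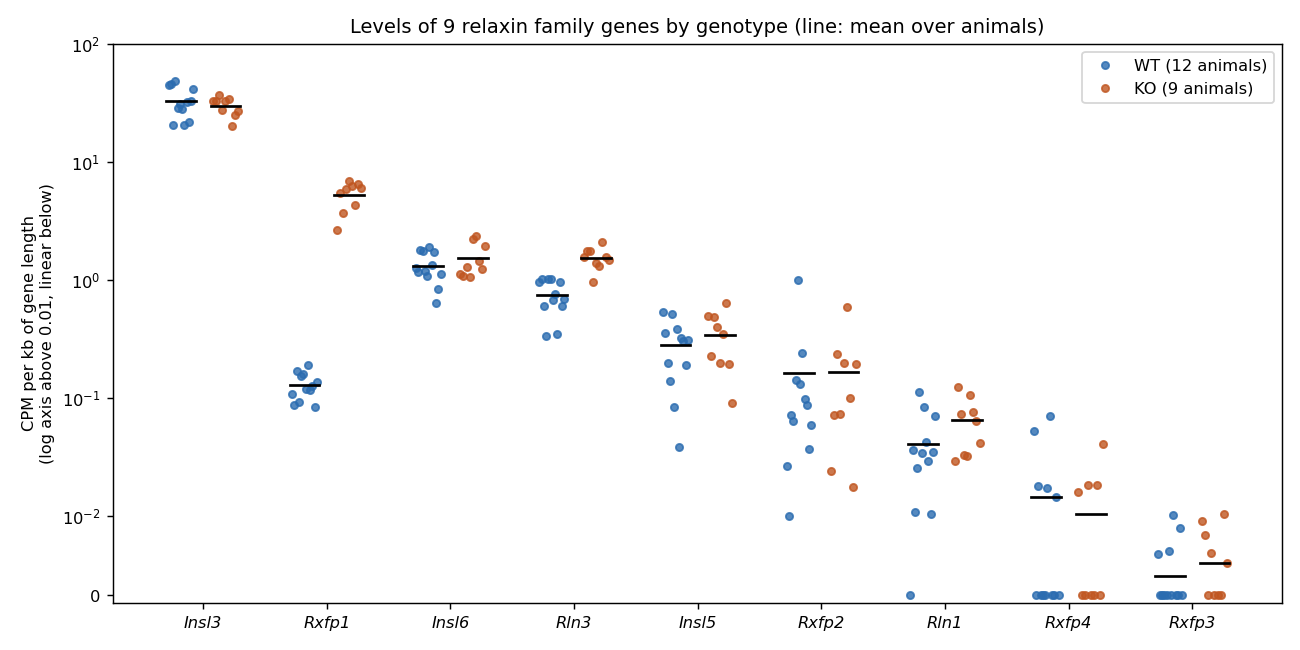
Level per kb in CPM (log axis above 0.01, linear below it) of 9 relaxin family genes, with each point 1 testis and lines for the mean over 12 WT or 9 KO animals. Insl3 leads in both genotypes, and Rxfp1 moves from a mean of 0.129 in WT to 5.30 in KO.

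Genes that carry the signal of RXFP1 and RXFP2 inside the cell were described through a list of 29, of which 28 were tested (Pde4d matches more than 1 entry and was left out). Averaged over treatments, 2 rose and 4 fell, with a median log2 difference of 0.00 against 0.01 over all genes. Most genes of the list belong to the cyclic AMP pathway, and the falls were small. Prkar2a, a regulatory subunit of protein kinase A, fell by 0.21 ± 0.05 (SE; adjusted p = 0.0112, edgeR), and Creb1, the transcription factor that the kinase phosphorylates, fell by 0.13 ± 0.04 (adjusted p = 0.0173). Prkaca, the catalytic subunit, and Prkar1a, a regulatory subunit, fell by 0.14 and 0.12. All 6 genes called are named here, 3 of them after their values were seen. In the 12 libraries left without the Cdh16-high ones none of the 6 was called, while the log2 differences were -0.26 for Prkar2a, -0.18 for Creb1, -0.13 for Prkaca, -0.13 for Prkar1a and 0.27 for Prkcz, about as large as with them or larger.

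Adcy8, an adenylyl cyclase, and Prkcz, an atypical protein kinase C, were the 2 that rose, by 2.82 ± 0.88 (SE; adjusted p = 0.0384) and 0.25 ± 0.08 (adjusted p = 0.0347) in edgeR. Adcy8 was at 1.41 to 22.2 CPM in the 9 Cdh16-high libraries and at 0.0447 to 0.455 CPM in the 12 others, and without the former its difference was 0.11 (adjusted p = 0.971). With 1 library left out at a time, Adcy8 was called in 6 of 21 fits and Prkcz in 10 of 21. None of the 28 was called under vehicle alone, where 2.92% of all genes were called, and 11 of the 28 had a positive value there. Under stigmasterol 1 rose and 2 fell, beside 7.21% of all genes called, and the rise was Adcy8 at 6.02 ± 1.71 (SE; adjusted p = 0.0389, edgeR). For a list of 13 matrix genes linked to relaxin, such as collagens and metalloproteinases, 11 were tested. Of these Tgfb1, a matrix-inducing growth factor, fell by 0.20 ± 0.06 (SE; adjusted p = 0.0260, edgeR) and none rose, with a median of 0.04. Without the Cdh16-high libraries Tgfb1 was at -0.20 (adjusted p = 0.452), as large in fewer samples and not called. These calls of the averaged contrast stand beside 13.9% of all genes called.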

How the data were processed

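Libraries from testis RNA of 21 mice were made with the TruSeq RNA Sample Prep kit, per the labels' protocols; that kit does not mark strand. Tools named in the submitters' processing notes are CASAVA 1.8.2, TopHat2 2.0.10, Bowtie, Bowtie2 2.1.0 and the build mm10, and no source used here names the read counter. The deposited table holds the authors' raw counts, which entered every test. The authors also deposited a normalized signal and that signal per kb of gene length, which gave the gene lengths and a check of the levels. The authors deposited log2 ratios, p-values and adjusted p-values of treatment against vehicle, rounded to 2 decimals.

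The main model was edgeR 4.0.16 under R 4.3.3, with TMM scaling, filterByExpr (minimum count 10, minimum total 15; 20254 of 32643 genes kept), 1 mean for each of 6 groups, the quasi-likelihood test and Benjamini-Hochberg adjustment at 0.05 within each of 10 contrasts. All tests were two-sided, and the code was tested on simulated data. Each SE came from the fold change and its F value, and 95% intervals use the degrees of freedom of the fit. Levels are CPM after TMM. Wilson intervals and floors of 3 reads cover counting error only. Likeness is Pearson's r of log2 CPM with a prior count of 2, given as a description over libraries that share depth and genotype.

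Alternatives were DESeq2 1.42.0, its size factors in edgeR, no filter, a fit of the compared groups alone, a fit without the Cdh16-high libraries (Cdh16 of 10 CPM or above), and each animal left out. The 4 members and all gene lists were chosen with earlier results of these data known. Named genes were the 9 family genes, up to 3 of each list by smallest p, the 5 most like Rxfp1 and the 5 most like Insl3, the 5 nearest on each side of Rxfp1, Cdh16 and Nr1h4; others are said to be chosen later or are checks. Rln1 did not pass the filter, so its planned tests have values only with no filter or in DESeq2. Promoters are from RefSeq, matched by symbol for 7 of 9 genes. Each library is labelled as its own animal.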

Additional observations from a re-analysis of the deposited data

Results flagged for a closer look

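In a group of 4 animals, a value was set aside for a closer look when it lay far from the other 3 relative to the range of the group (27 gene-by-group sets of the 9 family genes). For normally distributed values chance alone does this in about 1 in 20 groups. That rate need not hold for skewed CPM values and does not apply to groups of mostly 0 reads. Rxfp2 in the WT BPA animal T75 was at 2.48 CPM while the other 3 lay at 0.326 to 0.592 CPM, and the muscle and myoid values of T75 are given with the Rxfp2 result. Insl3 in the WT vehicle animal T79 was at 12.7 CPM while the other 3 lay at 27.9 to 30.3 CPM. Insl5 in the WT stigmasterol animal T118 was at 0.109 CPM on 6 reads, while the others of its group, with 6 to 9 reads, lay at 0.173 to 0.182 CPM. Rxfp3 in T66 (0.0219 CPM) and T118 (0.0364 CPM) and Rxfp4 in T118 (0.0182 CPM) are 1 or 2 reads where the other animals of the group had none, so the distance measure is fixed at its maximum there. No treatment by genotype interaction of a tested family gene passed the threshold.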

How the results depend on the processing

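No paired analysis was possible because the replicate names are codes of single animals that no 2 groups share. Of 439 values from alternatives of 30 tested contrasts of Rxfp1, Rxfp2, Insl3 and Rln3, 3 of which (all Rln3) were called to begin with, 409 kept their direction and side of the threshold, 16 changed direction, 12 lost the threshold and 2 passed it. The fit of the compared groups alone was not run for the averaged contrast, which uses all groups, and gave no value for Rxfp2 under vehicle or for stigmasterol in WT, where Rxfp2 did not pass the filter; Rln1 is outside these counts. Calls of the averaged contrast for other named genes held in 7 of 25 alternatives for Ppid, 9 for Adcy8, 10 for Fam198b and 12 for Prkcz. They held in 24 for Tmem144, Prkaca, Prkar1a, Prkar2a, Creb1, Tgfb1 and Nr5a1. Gm26984, which is described only, ran from 1.96 to 2.38 over its 25 alternatives.

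Without the 9 Cdh16-high libraries, Rxfp1 in KO against WT under vehicle was 5.46 and its BPA interaction -0.24. In the same fit Rxfp2 was -1.92 for KO against WT under stigmasterol, -0.77 averaged, and -1.95 for stigmasterol in KO, and Rln3 lost its calls at 1.01 under vehicle, 1.26 under stigmasterol and 0.90 averaged. In the compared groups alone Rxfp1 was 0.0034 for stigmasterol in WT, and Rln3 was not called at 1.19 under vehicle or 1.40 under stigmasterol. With no filter Rln3 under vehicle was 1.19, not called. DESeq2 gave Rxfp2 3.12 for BPA in WT, called, and -0.049 for stigmasterol in KO. Where no cause is given by fewer samples or genes, the cause was not tested.

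Leaving out 1 animal at a time, Rxfp1 for stigmasterol in WT ran from -0.11 to 0.25. Rxfp2 ran from -1.45 (without T117) to 0.73 (without T75) for KO against WT under BPA, from -0.27 to 1.07 under stigmasterol, from -0.84 to 1.10 for stigmasterol in KO and from -1.52 to 0.42 for the stigmasterol interaction. Insl3 ran from -0.78 to -0.46 for BPA in WT and from -0.35 to 0.016 for the stigmasterol interaction. Rln3 ran from 0.96 to 1.40 under vehicle and from 1.19 to 1.65 under stigmasterol. Over all alternatives the genes called between genotypes numbered 56 to 1397 under vehicle (592 reported), 31 to 298 under BPA (174), 85 to 2173 under stigmasterol (1461) and 257 to 3403 averaged (2820). For BPA in WT they numbered 0 to 1321 (0), for stigmasterol in WT 0 to 71 (1), for BPA in KO 1 to 12 (3), for stigmasterol in KO 0 to 2 (0), and for the interactions 2 to 8 (3) and 0 to 125 (2). Depth limits Rln1, Rxfp3 and Rxfp4, which are at or near the floor of 3 reads.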
